A study of Mus musculus with 3 samples.

Results

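The 31 genes described here encode enzymes of cholesterol and fatty acid synthesis, the proteins that sense sterols and carry them through the cell or out of it, and 1 enzyme that makes an oxysterol. They were picked by symbol from a list of functions and make up 31 of the 32285 genes in the feature tables. Of these, 7 act in the mevalonate pathway (Acat2, Hmgcs1, Mvk, Pmvk, Mvd, Idi1, Fdps), 11 turn farnesyl diphosphate into cholesterol by way of squalene (Fdft1, Sqle, Lss, Cyp51, Tm7sf2, Msmo1, Nsdhl, Hsd17b7, Ebp, Sc5d, Dhcr7), 4 sense or answer sterol levels (Srebf1, Srebf2, Insig1, Insig2), 5 make fatty acids (Acly, Acaca, Fasn, Scd1, Scd2) and 4 move or oxidise sterols (Stard4, Abca1, Abcg1, Ch25h). The brain makes nearly all of its own cholesterol, since lipoproteins of the blood do not cross the blood-brain barrier. In adults, astrocytes make cholesterol and hand it on in lipoprotein particles, and oligodendrocytes use large amounts of cholesterol and fatty acids for myelin. When sterols in the endoplasmic reticulum run low, the transcription factor SREBP2 is released and switches on the enzymes of the pathway, whereas oxysterols act through LXR receptors, whose targets include Abca1, Abcg1 and Srebf1.

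Live cells of the brain were sequenced from WT C57BL6J mice aged 10 to 12 weeks, without treatment (naive, here called control), 24 h after TIA or 3 d after TIA. The paper describes the tissue as cortex and the mice as male. TIA was a 5 min occlusion of the middle cerebral artery by a filament, and the occluded hemisphere was used. Cells of 3 mice were pooled into 1 library per group, after white matter and meninges had been taken off, the tissue digested with papain, and propidium iodide-negative cells sorted. The control, 24 h and 3 d libraries held 4804, 1619 and 5505 cells with 37987228, 12919691 and 48636436 UMIs, of which 4018, 1225 and 4781 cells had at least 500 genes and at most 7% mitochondrial UMIs and were kept. The 24 h library stood apart in this: 567 of 4804, 340 of 1619 and 627 of 5505 cells were above the mitochondrial limit, and 91, 149 and 66 cells crossed both limits. Of the kept cells, 122 of 4018, 6 of 1225 and 140 of 4781 were called doublets, that is 3.04%, 0.49% and 2.93%, the 24 h library again standing apart. The control and 24 h libraries shared 3 cell barcodes, the control and 3 d libraries 8, and the 24 h and 3 d libraries 4. Raw UMIs were summed per cell class and library and scaled to UMIs per 1000000 UMIs of that sum (CPM). Since each group is 1 library, no test between groups was possible, the mice of a group cannot be told apart, and every interval given covers counting error only. A ratio is the log2 of CPM after TIA over CPM in the control, and both time points share the control library. A gene was counted as higher or lower when it had at least 100 UMIs over both sums and lay past 1.5-fold, a log2 ratio of 0.58.

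The 5 cell classes compared were named from marker genes of joint clusters and are marker-defined, astrocyte-like or microglia-like cells and so on. They held, in the control, 24 h and 3 d libraries, 232, 72 and 250 oligodendrocytes, 791, 217 and 1278 astrocytes, and 974, 270 and 1212 microglia. Of vascular cells there were 287, 229 and 591 endothelial cells and 159, 182 and 327 pericytes. In astrocytes the 10 astrocyte markers, led by Slc1a2, summed to 19780 CPM in the control library, 20161 CPM at 24 h and 20576 CPM at 3 d. In oligodendrocytes the 10 oligodendrocyte markers summed to 44224 CPM in the control library, 39455 CPM at 24 h and 41882 CPM at 3 d, and in microglia the 10 microglial markers to 28509.6 CPM in the control library, 25162 CPM at 24 h and 25354 CPM at 3 d. The 10 endothelial markers, led by Flt1, summed to 24224 CPM in the control library, 23864 CPM at 24 h and 23761 CPM at 3 d in endothelial cells, and the 9 pericyte markers, led by Vtn, to 29648 CPM in the control library, 28124 CPM at 24 h and 26125 CPM at 3 d in pericytes.

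Sterol synthesis genes were most abundant in astrocytes. In the control library the 18 enzymes of the mevalonate and squalene to cholesterol steps together reached 1869 CPM in astrocytes, 897 CPM in oligodendrocytes, 452 CPM in pericytes, 329 CPM in endothelial cells and 208 CPM in microglia. The counting intervals of neighbouring classes in this order did not overlap, and the order was the same in the other libraries, where those of pericytes and endothelial cells overlapped at 24 h. Fatty acid synthesis genes had another order: they summed to 3623 CPM in control oligodendrocytes and 1099 CPM in astrocytes, while endothelial cells at 205 CPM and pericytes at 195 CPM could not be separated within their counting intervals and microglia had 154 CPM. In oligodendrocytes 86.3% of that sum was Scd2, the stearoyl-CoA desaturase that puts the double bond into oleate. Efflux genes were spread differently again. Abca1, which loads cholesterol onto apolipoproteins, had 484 CPM in control microglia, 217 CPM in astrocytes, 73.9 CPM in endothelial cells, 69.3 CPM in oligodendrocytes and 19.3 CPM in pericytes. Abcg1, which exports sterols to lipid-bearing particles, was at 144 CPM in oligodendrocytes and 132 CPM in microglia against 4.54 CPM in astrocytes. Stard4, a soluble sterol carrier, was highest in endothelial cells at 73.9 CPM, with 13.5 CPM in astrocytes.

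**Figure D1:**
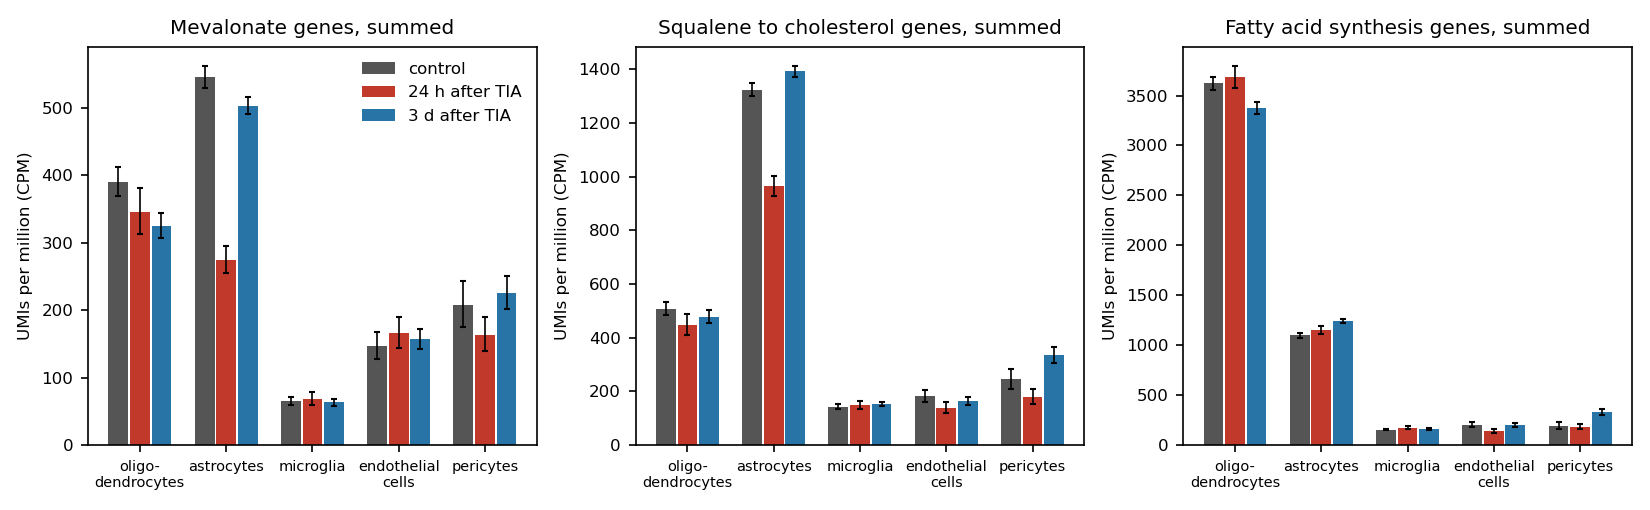
Summed UMIs per 1000000 (y axis, CPM, linear from 0) of the 7 mevalonate, 11 squalene to cholesterol and 5 fatty acid synthesis genes in 5 cell classes (x axis) of the control, 24 h and 3 d libraries, 1 library of 3 pooled mice each. Bars are sums over all cells of the class and error bars exact Poisson 95% intervals, which cover counting error only. In astrocytes mevalonate genes went from 546 to 275 CPM at 24 h and stood at 503 CPM at 3 d.

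In astrocytes the mevalonate pathway was 1.98-fold lower 24 h after TIA and near the control level at 3 d. Its 7 genes summed to 546 CPM in the control library, 275 CPM at 24 h and 503 CPM at 3 d, a log2 ratio of -0.99, 95% interval -1.10 to -0.88, at 24 h and -0.12, 95% interval -0.17 to -0.06 at 3 d. The 24 h library was thus the low one, and its counting interval lay apart from those of the other libraries. Of the 31 genes, 29 had enough UMIs in astrocytes at 24 h, and 9 of the 29 were lower and 1 was higher, beside 9.15% lower and 7.82% higher of all 9675 genes so counted, so that the share of lower genes was above that over all genes. At 3 d, 0 of 29 were lower and 0 higher, beside 2.04% and 2.52% of 11347 genes. Abcg1 and Ch25h had too few UMIs at both times. The median log2 ratio of the 29 genes was -0.40 at 24 h and 0.11 at 3 d, against 0.03 and 0.04 over all genes counted.

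Hmgcs1 makes the substrate of the rate-limiting step in the mevalonate pathway. In astrocytes it had 194 CPM in the control library, 94.4 CPM at 24 h and 171 CPM at 3 d, on 1585, 250 and 2232 UMIs, which gives log2 ratios of -1.04, 95% interval -1.24 to -0.85, at 24 h and -0.18, 95% interval -0.28 to -0.09 at 3 d. Pmvk, the phosphomevalonate kinase, had 59.00 CPM in the control library, 24.9 CPM at 24 h and 51.6 CPM at 3 d, with log2 ratio -1.24, 95% interval -1.64 to -0.87 at 24 h. Fdps, which builds farnesyl diphosphate, had 79.5 CPM in the control library, 35.1 CPM at 24 h and 69.8 CPM at 3 d, with log2 ratio -1.18, 95% interval -1.51 to -0.86 at 24 h. The 24 h library was the lowest of the libraries for each of these genes, and the 3 d library lay close below the control. Idi1, the isopentenyl diphosphate isomerase, went from 121 to 62.3 CPM at 24 h (log2 ratio -0.96, 95% interval -1.20 to -0.72) and to 111 CPM at 3 d. Mevalonate kinase (Mvk) had a 24 h log2 ratio of -0.94 and mevalonate diphosphate decarboxylase (Mvd) of -0.87. Acat2, the cytosolic thiolase at the head of the pathway, lay within 1.5-fold at log2 ratio -0.25. So 6 of the 7 genes were lower at 24 h, and their 3 d log2 ratios lay between -0.19 and 0.15.

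The later steps were lower to a smaller degree. The 11 squalene to cholesterol genes summed to 1323 CPM in the control library, 964 CPM at 24 h and 1392 CPM at 3 d, with log2 ratios of -0.46, 95% interval -0.52 to -0.39, at 24 h and 0.07 at 3 d. All 11 had a log2 ratio below 0 at 24 h, and 2 of them were past 1.5-fold. Fdft1, the squalene synthase that commits farnesyl diphosphate to sterols, had 156 CPM in the control library, 93.99 CPM at 24 h and 162 CPM at 3 d and a 24 h log2 ratio of -0.73, 95% interval -0.93 to -0.53. Dhcr7, which makes cholesterol in the last step of 1 branch, had 57.6 CPM in the control library, 30.95 CPM at 24 h and 52.2 CPM at 3 d and log2 ratio -0.90, 95% interval -1.25 to -0.56. Sqle, the squalene monooxygenase and a second control point of the pathway, had 99.96 CPM in the control library, 68.3 CPM at 24 h and 100.4 CPM at 3 d, within 1.5-fold at log2 ratio -0.55, 95% interval -0.79 to -0.32. Sqle passed 1.5-fold without doublets, with cells weighted equally and without the 5 cells with most UMIs, down to log2 ratio -0.69. The last of these leaves out 5 of 217 astrocytes at 24 h but 5 of 791 in the control, which can by itself lower the ratio. Msmo1, a sterol C4-methyl oxidase, supplied 48.2% of the summed UMIs in the control and was at log2 ratio -0.40. The other 7 genes ranged from log2 ratio -0.51 (Nsdhl) to -0.23 (Lss) at 24 h. All 18 sterol synthesis genes together had 1869 CPM in the control library, 1239 CPM at 24 h and 1895 CPM at 3 d, a log2 ratio of -0.59, 95% interval -0.65 to -0.54, at 24 h and 0.02, 95% interval -0.01 to 0.05 at 3 d. Compared directly, the 3 d library was above the 24 h library by a log2 ratio of 0.61, 95% interval 0.56 to 0.67.

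The lower level was spread over the astrocytes. When each cell was thinned to 5000 UMIs, leaving out 60, 25 and 109 shallower cells, the median cell had 9 sterol synthesis UMIs in the control, 6 at 24 h and 9 at 3 d. The quartiles moved with the median, from 5 and 13 UMIs in the control to 4 and 9 at 24 h. Without thinning the medians were 17, 14 and 17.5 UMIs. Astrocytes fell into 2 clusters, the first with 467, 100 and 631 cells in the 3 libraries and the second with 324, 117 and 647, so that the first held most control astrocytes and the second most astrocytes after TIA. Mevalonate genes summed to 564, 304 and 533 CPM in the control, 24 h and 3 d cells of the first cluster and to 523, 255 and 479 CPM in those of the second. The 24 h log2 ratio was -0.89 in the first and -1.04 in the second. In the first cluster alone the sum of all 18 sterol synthesis genes was at log2 ratio -0.49, Mvk at -0.46 and Fdft1 at -0.51, each within 1.5-fold. Another cluster had all 10 astrocyte markers and high Agt but stayed unnamed. Its 103, 22 and 149 cells had 329, 183 and 339.8 CPM of mevalonate genes.

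**Figure D2:**
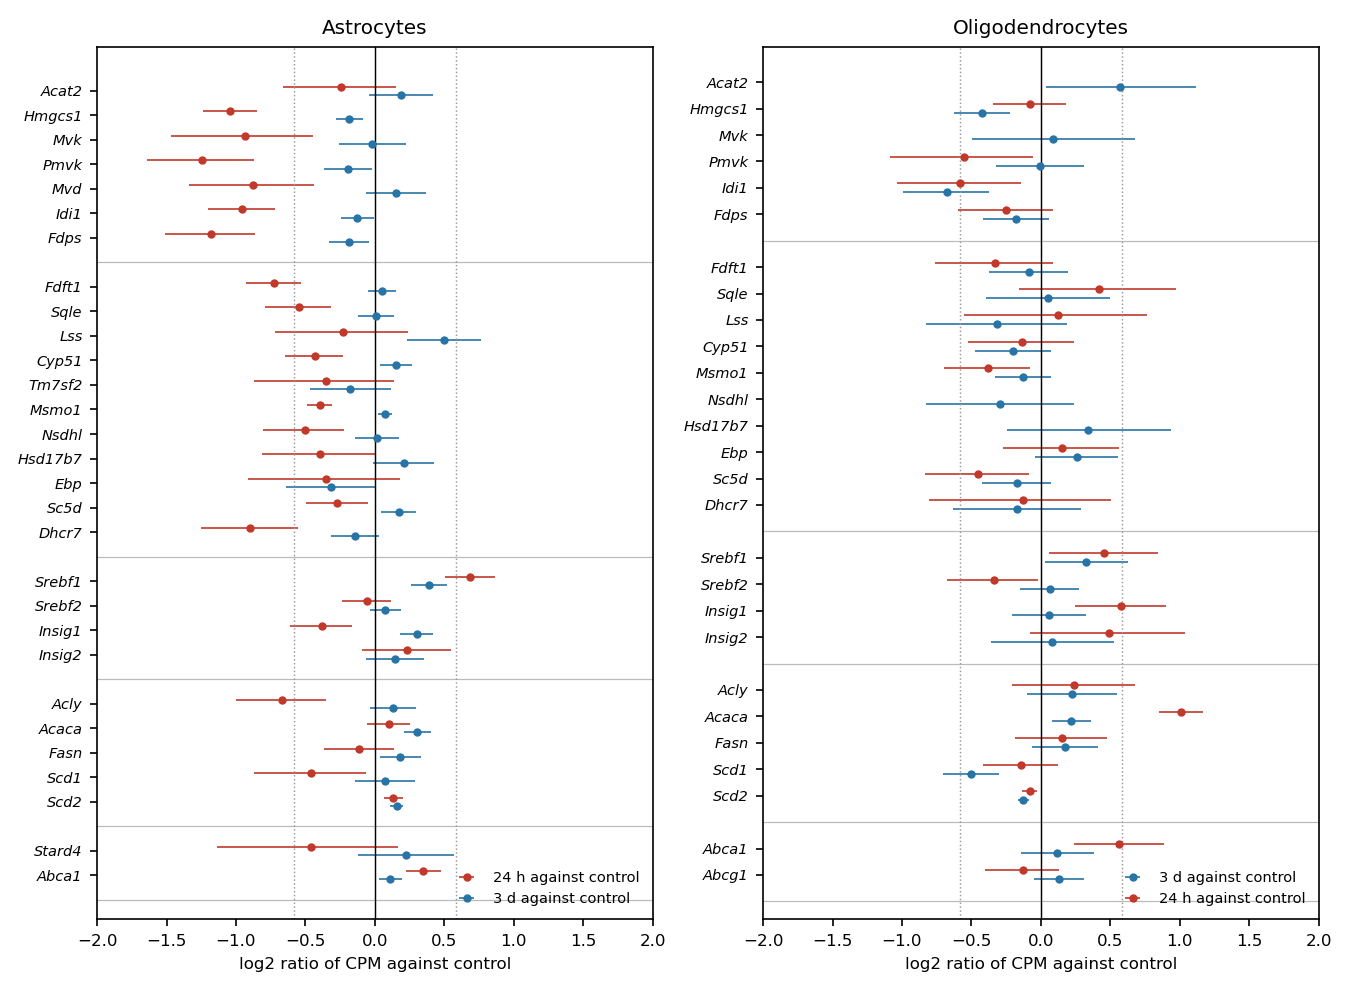
Log2 ratio of CPM against the control library (x axis) for each gene with at least 100 UMIs over both sums (y axis, grouped by step from mevalonate at the top to transport at the bottom) in astrocytes and oligodendrocytes, 24 h and 3 d after TIA. Points are ratios of 1 library to another, bars exact 95% counting intervals and dotted lines 1.5-fold, and all 18 sterol synthesis genes of astrocytes lie left of 0 at 24 h, from log2 ratio -1.24 (Pmvk) to -0.23 (Lss).

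The sterol-sensing genes of astrocytes did not share one direction. Srebf1, which encodes SREBP1 and drives fatty acid synthesis genes, was the 1 higher gene, with 90.1 CPM in the control library, 145 CPM at 24 h and 118 CPM at 3 d and log2 ratios of 0.69, 95% interval 0.50 to 0.87, at 24 h and 0.39 at 3 d. Srebf2, the gene of SREBP2, had 135 CPM in the control library, 129.8 CPM at 24 h and 142 CPM at 3 d, and its 24 h log2 ratio of -0.06, 95% interval -0.24 to 0.12 could not be told from 0 at this depth. Insig1, a SREBP2 target whose product holds SREBPs in the endoplasmic reticulum, had 103 CPM in the control library, 78.9 CPM at 24 h and 127 CPM at 3 d, with log2 ratio -0.38 at 24 h and 0.30 at 3 d. Insig2 was at log2 ratio 0.23 at 24 h and 0.14 at 3 d.

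Among fatty acid genes of astrocytes, Acly, which splits citrate into the acetyl-CoA that both pathways use, had 57.6 CPM in the control library, 36.2 CPM at 24 h and 62.99 CPM at 3 d and was lower at 24 h, at log2 ratio -0.67, 95% interval -1.002 to -0.35. Acaca, the carboxylase of the committed step, was at log2 ratio 0.10 and the synthase Fasn at -0.11. Scd1 was at -0.46 and Scd2 at 0.13, and all of these lay within 1.5-fold. Scd1 passed it in the largest cluster and without the 5 cells with most UMIs, a larger share of astrocytes at 24 h than in the control, down to log2 ratio -0.71. Scd2 had 772 CPM in the control library, 847 CPM at 24 h and 860.3 CPM at 3 d and decided the sum of the 5 genes, which was at log2 ratio 0.06 and 0.18. Abca1 had 217 CPM in the control library, 276 CPM at 24 h and 234 CPM at 3 d, a 24 h log2 ratio of 0.35, 95% interval 0.22 to 0.47, and Stard4 was at -0.46, 95% interval -1.14 to 0.17. Of 51 other genes of these pathways, chosen by function, 45 had enough UMIs at 24 h, and 4 were lower and 2 higher, near or below the 9.15% and 7.82% over all genes. The lower genes held Gramd1c, a carrier of plasma membrane cholesterol (17.9 to 8.68 CPM, log2 ratio -1.04, 95% interval -1.75 to -0.40). Gramd1c was at -1.74 without its 5 highest cells, a larger share of astrocytes at 24 h than in the control. Scarb1, a lipoprotein receptor, was at log2 ratio -0.80 and Acss2, which makes acetyl-CoA from acetate, at -0.66, but at -0.34 and -0.48 in the largest cluster. Mylip, an LXR target that marks lipoprotein receptors for breakdown, was at log2 ratio -1.73, 95% interval -2.49 to -1.05, on 66 of 791 control and 12 of 217 astrocytes at 24 h. The 5 highest cells held 29.4% of its UMIs in the control and 63.2% at 24 h, it had a UMI in 94.6% of control microglia, and without doublets it was at log2 ratio -0.56, on 58 UMIs over both sums. The higher genes were the transporter Abca2 (28.2 to 49.8 CPM, log2 ratio 0.82) and Hacd2 of fatty acid elongation (305 to 461 CPM, 0.59), which lay within 1.5-fold under 6 alternatives. At 3 d, 47 were counted, of which 0 were lower and 1 higher, beside 2.04% and 2.52% over all genes. It was the transporter Abca7 at log2 ratio 0.59, within 1.5-fold under 7 alternatives.

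Other measures moved in the same astrocyte libraries. UMIs per cell were made equal in the thinned sterol synthesis counts above. Apart from that and the erythrocyte share of the UMI total, the part of these measures in the values was not tested. The median astrocyte had 9756, 11763 and 9599 UMIs in the control, 24 h and 3 d libraries and a mitochondrial share of 3.63%, 3.06% and 3.23%. The 10 microglial markers, all found in astrocytes of each library, summed to 976 CPM in the control library, 374 CPM at 24 h and 655 CPM at 3 d. The 5 erythrocyte markers, led by Hbb-bs, summed to 877 CPM in the control library, 24.2 CPM at 24 h and 580.2 CPM at 3 d. The 10 oligodendrocyte markers, all found and led by Cnp, summed to 164 CPM in the control library, 94.4 CPM at 24 h and 147 CPM at 3 d, lowest at 24 h as the sterol synthesis genes were. The 5 choroid plexus markers, led by Ttr and with 4 of them at 0 UMIs at 24 h and 2 at 3 d, summed to 178 CPM in the control library, 2.64 CPM at 24 h and 3.38 CPM at 3 d. Of 20 immediate early and dissociation genes, 13 had enough UMIs at 24 h, with 8 lower and 1 higher, and 17 at 3 d, with 11 lower and 0 higher. Their median log2 ratio was -0.65 at 24 h and -0.80 at 3 d. Of 10 glucocorticoid-responsive genes, 10 were counted at 24 h, with 8 higher, and 9 at 3 d, with 4 higher and 1 lower. Their medians were 1.25 and 0.49. Over all genes counted in astrocytes, 9.15% were lower and 7.82% higher at 24 h, and 2.04% lower and 2.52% higher at 3 d.

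Promoter sequences were read for the mevalonate genes that were lower together in 24 h astrocytes. RefSeq windows on GRCm38.p6 from 250 bases before to 50 bases after the gene start were matched for 24 of the 31 genes, with 31 windows in all since some genes have several starts. Searched on both strands were the sterol regulatory element to which SREBPs bind, TCACNCCAC, and the CCAAT box bound by NF-Y, which acts beside SREBPs at many of these promoters. The first stood in 1.24% of all 32851 windows and in 1 of 18 windows of sterol synthesis genes, that of Hmgcs1. The second stood in 37.4% of all windows and in 14 of the 18. Shown are Hmgcs1 (chr13:119690101-119690400, plus strand), Idi1 (chr13:8885356-8885655, plus strand), Mvk (chr5:114444019-114444318, plus strand) and Mvd (chr8:122443373-122443672, minus strand), as 4 of the 6 lower genes and each with 1 window, with both motifs in capitals on either strand. Hmgcs1 has 1 sterol regulatory element, from base 114 of the window, and 4 CCAAT boxes, Idi1 2, Mvk 5 and Mvd 2 CCAAT boxes, and the motifs do not overlap each other in these windows. Pmvk, not shown, has a window with 0 CCAAT boxes and another with 1, and no sterol regulatory element in either. Fdps has no window. A match describes these letters, and binding was not measured.
Hmgcs1: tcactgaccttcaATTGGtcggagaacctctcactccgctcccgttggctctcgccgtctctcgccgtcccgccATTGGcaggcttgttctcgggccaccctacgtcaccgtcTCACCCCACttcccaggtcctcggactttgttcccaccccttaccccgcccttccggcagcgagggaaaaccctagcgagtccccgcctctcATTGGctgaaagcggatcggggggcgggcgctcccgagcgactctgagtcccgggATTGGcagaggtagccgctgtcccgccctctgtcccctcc
Idi1: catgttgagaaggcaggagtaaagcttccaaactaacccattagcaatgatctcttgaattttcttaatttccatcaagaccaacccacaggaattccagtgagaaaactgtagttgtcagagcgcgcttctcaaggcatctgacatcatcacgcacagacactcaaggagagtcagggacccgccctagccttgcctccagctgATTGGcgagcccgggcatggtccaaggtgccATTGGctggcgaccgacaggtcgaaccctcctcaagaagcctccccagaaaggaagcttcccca
Mvk: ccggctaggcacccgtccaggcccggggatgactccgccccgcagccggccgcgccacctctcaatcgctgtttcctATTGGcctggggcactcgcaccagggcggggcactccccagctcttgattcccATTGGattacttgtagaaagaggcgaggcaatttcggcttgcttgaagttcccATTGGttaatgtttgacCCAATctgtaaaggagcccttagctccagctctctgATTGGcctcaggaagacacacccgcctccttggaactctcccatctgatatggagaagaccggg
Mvd: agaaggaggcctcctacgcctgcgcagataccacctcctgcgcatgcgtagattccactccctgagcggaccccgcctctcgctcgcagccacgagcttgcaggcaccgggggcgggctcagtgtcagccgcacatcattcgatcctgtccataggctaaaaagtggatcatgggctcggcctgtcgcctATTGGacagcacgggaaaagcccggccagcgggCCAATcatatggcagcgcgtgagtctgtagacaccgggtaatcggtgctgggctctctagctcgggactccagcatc

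In oligodendrocytes 1 member was past 1.5-fold at 24 h, and it stayed so under all 12 alternatives, while which others joined it depended on the choices made. Acaca of fatty acid synthesis, which makes malonyl-CoA for chain building, had 228 CPM in the control library, 458 CPM at 24 h and 265 CPM at 3 d, on 749, 550 and 922 UMIs, and log2 ratios of 1.01, 95% interval 0.85 to 1.17, at 24 h and 0.22, 95% interval 0.08 to 0.36 at 3 d. The 24 h library was the high one. Acaca was the 1 gene higher of 23 with enough UMIs at 24 h and 0 were lower, beside 7.79% higher and 10.2% lower of 5921 genes. At 3 d, 0 of 27 were higher and 1, Idi1, was lower, beside 6.24% and 2.53% of 7356 genes. As shares of the genes counted, 1 of 23 lies below and 1 of 27 near the share over all genes. The median of the members was -0.08 at 24 h and 0.05 at 3 d, against -0.02 and 0.03 over all genes. Scd2 had 3127 CPM in the control library, 2956 CPM at 24 h and 2865 CPM at 3 d, and Fasn had 81.7 CPM in the control library, 90.7 CPM at 24 h and 92.2 CPM at 3 d, with log2 ratios within 1.5-fold. Elovl6, which lengthens palmitate to stearate and belongs to the other pathway genes, went the other way from Acaca at 24 h. It had 173 CPM in the control library, 57.4 CPM at 24 h and 151 CPM at 3 d, with log2 ratio -1.59, 95% interval -1.97 to -1.23 at 24 h and -0.19 at 3 d. Of the other pathway genes, 30 were counted at 24 h, with 2 higher and 1, Elovl6, lower, beside 7.79% and 10.2% over all genes. Ggps1, which makes geranylgeranyl diphosphate, was higher at log2 ratio 0.75, but at 0.56 without its 5 highest cells and -0.09 in the cells with at most 1 UMI of astrocyte markers, an alternative chosen after the data were seen. Lbr, a sterol reductase, was higher at log2 ratio 0.63, but at 0.57 without doublets and 0.53 without its 5 highest cells. At 3 d, 36 were counted, with 3 higher and 0 lower, beside 6.24% and 2.53% over all genes, and none of the 3 kept its place past 1.5-fold under every alternative. Mylip was at log2 ratio 1.39, with UMIs in 20 of 250 cells and 77.3% of them in 5 cells, and without doublets it was at -0.52, on 22 UMIs over both sums. Lrp1, an endocytic receptor, was at log2 ratio 0.75, with UMIs in 29 cells and 46.3% of them in 5 cells. It was at log2 ratio 0.51 when a cell was left out only for crossing both quality limits, 0.56 without regression and 2.04 without the 5 highest cells of each library. In the control, Mylip had a UMI in 94.6% and Lrp1 in 88.1% of microglia. The 10 microglial markers, all found, summed to 491 CPM in the control library, 499 CPM at 24 h and 786 CPM at 3 d in oligodendrocytes, and their part was not tested. Scarb1 was at log2 ratio 0.66, and at 0.49 when a cell was left out only for crossing both quality limits.

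Sterol synthesis genes of oligodendrocytes summed to 897 CPM in the control library, 793 CPM at 24 h and 803 CPM at 3 d, log2 ratios of -0.18, 95% interval -0.28 to -0.07, at 24 h and -0.16, 95% interval -0.23 to -0.08 at 3 d. Hmgcs1 had 142 CPM in the control library, 135 CPM at 24 h and 106 CPM at 3 d, and Idi1 had 67.1 CPM in the control library, 44.9 CPM at 24 h and 41.9 CPM at 3 d. Its 24 h log2 ratio of -0.58, 95% interval -1.04 to -0.14, lay just within 1.5-fold and passed it under 7 of 12 alternatives, and at 3 d it was lower at -0.68, 95% interval -0.99 to -0.37. A few cells held much of the 24 h UMIs. The 5 cells with most Hmgcs1 UMIs held 44.4% of them among 72 cells at 24 h, against 12.8% among 232 control cells. Without the 5 highest cells of each library, a larger share of the class at 24 h than in the control, the sterol synthesis sum was at log2 ratio -0.43, Hmgcs1 at -0.59 and Idi1 at -1.25, while Acaca was at 0.80, and 9 members were past 1.5-fold in place of 1. The share over all genes was not counted under this alternative, so it is not known whether the members stand apart in it. In the 61, 21 and 37 oligodendrocytes with at most 1 UMI of astrocyte markers, a choice made after the data were seen, the sterol sum was at log2 ratio -0.65. Astrocyte markers summed to 471 CPM in the control library, 222 CPM at 24 h and 729 CPM at 3 d over all oligodendrocytes, led by Slc1a3 and with Aqp4 at 0 UMIs at 24 h. The 5 erythrocyte markers, all found and led by Hbb-bs, summed to 6566 CPM in the control library, 14.1 CPM at 24 h and 4817 CPM at 3 d, and the 10 endothelial markers, led by Flt1 and with Slco1a4 and Itm2a at 0 UMIs at 24 h, to 88.4 CPM in the control library, 11.7 CPM at 24 h and 152 CPM at 3 d. The 9 pericyte markers, led by Vtn and with Abcc9 at 0 UMIs in the control and 5 of the 9 at 0 UMIs at 24 h, summed to 28.3 CPM in the control library, 8.32 CPM at 24 h and 119 CPM at 3 d. Of the glucocorticoid-responsive genes of oligodendrocytes 8 were counted at 24 h, with 6 higher and a median log2 ratio of 3.08, and 9 at 3 d, with 7 higher and 1.68. Of the immediate early and dissociation genes 8 were counted at 24 h, with 4 higher and 1 lower, and 12 at 3 d, with 8 higher and 2 lower. With the erythrocyte markers left out of the UMI total, also a later choice, Acaca was at log2 ratio 0.999 at 24 h. Apart from that total and the astrocyte markers, the part of these lists in the values of oligodendrocytes was not tested. Insig1 had 68.05 CPM in the control library, 102 CPM at 24 h and 70.9 CPM at 3 d. Its 24 h log2 ratio was 0.58, 95% interval 0.25 to 0.90. Abca1 had 69.3 CPM in the control library, 102 CPM at 24 h and 75.2 CPM at 3 d. Its 24 h log2 ratio was 0.56, 95% interval 0.24 to 0.89, and both genes lay just within 1.5-fold. Insig1 passed it without doublets, in cells with at most 1 UMI of astrocyte markers, under median-ratio scaling and with cells weighted equally. It reached log2 ratio 1.06, and Abca1 passed 1.5-fold at 1.05 in the cells with at most 1 UMI of astrocyte markers. Srebf1 was at log2 ratio 0.45 and 0.33, Srebf2 at -0.34 and 0.06, Sqle at 0.42 and 0.05, and Abcg1 at -0.13 and 0.13, at 24 h and 3 d.

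Microglia had the least sterol synthesis message of the 5 classes and the most Abca1, and both efflux genes stood above the control at 24 h, within 1.5-fold. Sterol synthesis genes summed to 208 CPM in the control library, 218 CPM at 24 h and 215 CPM at 3 d, with log2 ratios of 0.07, 95% interval -0.07 to 0.20, and 0.04, 95% interval -0.05 to 0.14. Abca1 had 484 CPM in the control library, 563 CPM at 24 h and 506 CPM at 3 d, a 24 h log2 ratio of 0.22, 95% interval 0.13 to 0.30, and Abcg1 had 132 CPM in the control library, 184 CPM at 24 h and 127 CPM at 3 d, a 24 h log2 ratio of 0.48, 95% interval 0.32 to 0.63. For both genes the 24 h library was the high one and the control and 3 d libraries were close, and neither passed 1.5-fold, but Abcg1 was at log2 ratio 0.80 in the few microglia with 1 UMI or 0 from other classes' markers, on 94 UMIs over both sums. Of 16 genes counted at 24 h, 1 was higher and 0 lower, beside 6% and 3.44% of 9068 genes, and of 21 counted at 3 d, 1 was higher and 0 lower, beside 2.87% and 1.01% of 10279 genes. They were Srebf1 at 24 h (69 and 37 UMIs, log2 ratio 0.61, 95% interval -0.01 to 1.21) and Cyp51, the lanosterol demethylase, at 3 d (64 and 126 UMIs, 0.61, 95% interval 0.17 to 1.07). Srebf1 lay within 1.5-fold under 5 alternatives, down to log2 ratio 0.48 without its 5 highest cells, and at 2.26 in those few microglia. Cyp51 lay within 1.5-fold under 3, down to log2 ratio 0.38 in the largest cluster. Hmgcs1 was at log2 ratio 0.35 and 0.13, Srebf2 at 0.41 and 0.20, Insig1 at 0.29 and 0.24, and Scd2 at 0.24 and -0.02, at 24 h and 3 d. The members' median was 0.22 and 0.10, over all genes 0.05 and 0.06.

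Microglia fell into 2 clusters, a larger one with 854, 203 and 906 cells (control first, then 24 h, then 3 d) and a smaller one with 120, 67 and 306, which took a larger share of the microglia after TIA. Of the other pathway genes 33 were counted at 24 h, with 3 higher and 2 lower, beside 6% and 3.44% over all genes, and 34 at 3 d, with 2 higher and 0 lower, beside 2.87% and 1.01%. Lpl, a lipase that frees fatty acids from lipoproteins, had 13.5 CPM in the control library, 204 CPM at 24 h and 25.3 CPM at 3 d, on 105, 555 and 253 UMIs, with log2 ratio 3.91, 95% interval 3.61 to 4.23 at 24 h and 0.90 at 3 d. It was a leading gene of the smaller cluster, with 32.3, 625 and 58.4 CPM there, against 10.6, 5.92 and 11.7 CPM in the larger cluster, where the log2 ratios were -0.84 and 0.15. At 24 h, 5 cells held 54.2% of the Lpl UMIs of microglia. Nceh1, which frees cholesterol from its esters, had 12.9 CPM in the control library, 28.97 CPM at 24 h and 14.7 CPM at 3 d (log2 ratio 1.17, 95% interval 0.73 to 1.61 at 24 h), and Hacd2 was at 0.68. In the larger cluster alone they were at log2 ratio 0.45 and 0.46. Acsl3, which activates fatty acids for lipid droplets, had 17.8 CPM in the control library, 8.8 CPM at 24 h and 19.2 CPM at 3 d (log2 ratio -1.01, 95% interval -1.70 to -0.38), and was at -1.80 without regression and -1.94 without its 5 highest cells, a larger share of microglia at 24 h than in the control. Abca2 was at log2 ratio -0.69, 95% interval -1.52 to 0.05, and at -0.34 when a cell was left out only for crossing both quality limits. Cyp27a1, the sterol 27-hydroxylase, was the other higher gene at 3 d, with 27.9 CPM in the control library, 36.7 CPM at 24 h and 42.7 CPM at 3 d (log2 ratio 0.61, 95% interval 0.37 to 0.85), and lay within 1.5-fold under 6 alternatives. In microglia the 5 erythrocyte markers, all found and led by Hbb-bs, summed to 1281 CPM in the control library, 20.2 CPM at 24 h and 106 CPM at 3 d, and the 10 oligodendrocyte markers, all found, to 249.9 CPM in the control library, 121 CPM at 24 h and 189 CPM at 3 d. The 9 neuroblast markers, led by Meis2 and with Dlx2 at 0 UMIs at 24 h, summed to 72.1 CPM in the control library, 14.7 CPM at 24 h and 25.8 CPM at 3 d. Of the glucocorticoid-responsive genes in microglia 8 were counted at 24 h, with 5 higher and a median log2 ratio of 1.13, and 9 at 3 d, with 5 higher and 0.66. Other classes' markers were limited together in the 65, 26 and 65 microglia with 1 UMI or 0 from them. Apart from those cells and the erythrocyte share of the UMI total, the part of these lists was not tested.

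Ch25h, which makes 25-hydroxycholesterol, had most of its UMIs in these classes in endothelial cells and a few microglia, always below the 100 UMIs asked for. Endothelial cells had 5, 32 and 54 UMIs in the control, 24 h and 3 d libraries, that is 3.59 CPM in the control library, 24.96 CPM at 24 h and 19.7 CPM at 3 d, with log2 ratios of 2.80, 95% interval 1.43 to 4.52, at 24 h and 2.46, 95% interval 1.15 to 4.14 at 3 d. Both TIA libraries were above the control, and the intervals are wide. All control UMIs came from 1 cell, and the 5 highest cells held 71.9% of the UMIs at 24 h and 68.5% at 3 d. In microglia there were 2, 9 and 29 UMIs, with log2 ratio 3.68, 95% interval 1.41 to 6.93 and 3.49, 95% interval 1.51 to 6.61, again in few cells. Pericytes had 1 UMI in each library, oligodendrocytes 1 UMI at 24 h and 0 in the other libraries, and astrocytes 0 throughout, which allows up to 3 UMIs a library.

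**Figure D3:**
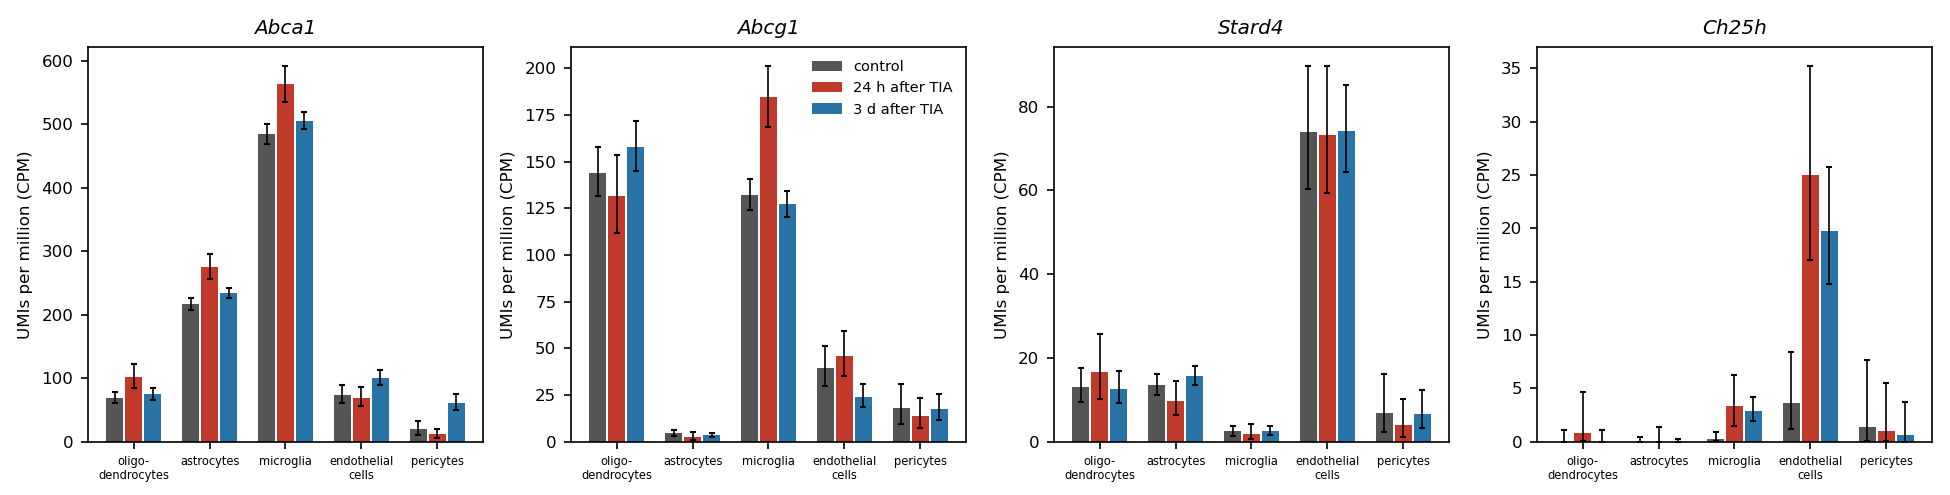
UMIs per 1000000 (y axis, CPM, linear from 0, with a scale of its own for each gene) of the efflux genes Abca1 and Abcg1, the sterol carrier Stard4 and the oxysterol enzyme Ch25h in 5 cell classes (x axis) of the control, 24 h and 3 d libraries, with exact Poisson 95% intervals as error bars. Abca1 is highest in microglia, Stard4 in endothelial cells, and Ch25h reaches 24.96 CPM in endothelial cells and 3.3 CPM in microglia at 24 h.

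In endothelial cells the sum of sterol synthesis genes stayed near the control, at 329 CPM in the control library, 306 CPM at 24 h and 322 CPM at 3 d, with log2 ratio -0.10, 95% interval -0.30 to 0.09 at 24 h and -0.03, 95% interval -0.20 to 0.14 at 3 d. Of its steps, squalene to cholesterol genes had 182 CPM in the control library, 139.6 CPM at 24 h and 165 CPM at 3 d, a 24 h log2 ratio of -0.38, 95% interval -0.67 to -0.10, within 1.5-fold but at -0.59, past it, with cells weighted equally. Mevalonate genes, at log2 ratio 0.18, 95% interval -0.10 to 0.47, could not be told from the control at this depth. Among 9 genes counted at 24 h, 1, Scd2, was lower and 0 were higher, beside 5.54% and 7.13% of 4838 genes. It had 110.5 CPM in the control library, 47.6 CPM at 24 h and 89.1 CPM at 3 d, a 24 h log2 ratio of -1.22, 95% interval -1.67 to -0.78, so that the 24 h library was the low one. At 3 d, of 14 counted, Acaca was higher (31.6 to 52.9 CPM, log2 ratio 0.75, 95% interval 0.25 to 1.27) and Abcg1 lower (39.5 to 24.1 CPM, -0.71, 95% interval -1.25 to -0.17), beside 7.34% and 3.14% of 6433 genes. Acaca lay at log2 ratio 0.54 when a cell was left out only for crossing both quality limits. Stard4 had 73.9 CPM in the control library, 73.3 CPM at 24 h and 74.1 CPM at 3 d, nearly the same value in each library, Abca1 was at log2 ratio -0.09 and 0.45, and Srebf2 at 0.06 and 0.08, at 24 h and 3 d. Abcg1 was at log2 ratio 0.22 at 24 h and Hmgcs1, counted at 3 d, at -0.04. The median over members was -0.09 and 0.00, over all genes -0.0046 and 0.04. Among the other pathway genes 20 were counted at 24 h, with 1 higher and 2 lower, beside 7.13% and 5.54% over all genes, and 25 at 3 d, with 3 higher and 2 lower, beside 7.34% and 3.14%. Acacb, the carboxylase of the mitochondrial membrane whose product limits fatty acid burning, had 45.2 CPM in the control library, 97.5 CPM at 24 h and 78.1 CPM at 3 d, higher at both times (log2 ratio 1.11, 95% interval 0.66 to 1.57 and 0.79, 95% interval 0.38 to 1.22). Slc25a1, the citrate carrier that feeds cytosolic acetyl-CoA, had 52.4 CPM in the control library, 28.9 CPM at 24 h and 31.4 CPM at 3 d, lower at both times (log2 ratio -0.86 and -0.74). Acsl3 was lower at 24 h (log2 ratio -0.80), Elovl1 lower at 3 d (-0.73), and the SREBP proteases Mbtps1 (0.65) and Mbtps2 (0.77) higher at 3 d. In endothelial cells with at most 1 UMI of astrocyte markers, chosen after the data were seen, Elovl1 at 3 d was at log2 ratio -0.41, Acacb at 0.56 and Mbtps1 at 0.48, within 1.5-fold, as was Mbtps1 at resolution 1 (0.49). Astrocyte markers in these cells, led by Slc1a2 and with Aqp4 and Aldh1l1 at 0 UMIs at 24 h, summed to 406 CPM in the control library, 159.9 CPM at 24 h and 344 CPM at 3 d. Microglial markers, all found, summed to 996 CPM in the control library, 382 CPM at 24 h and 1447 CPM at 3 d, and erythrocyte markers, led by Hbb-bs and with Hbb-bt at 0 UMIs at 24 h, to 416 CPM in the control library, 25.7 CPM at 24 h and 94.6 CPM at 3 d. Neuroblast markers, led by Stmn2 and with Dlx2 at 0 UMIs at 24 h, summed to 198 CPM in the control library, 61.6 CPM at 24 h and 111 CPM at 3 d. The 9 pericyte markers, all found and led by Rgs5, summed to 260.4 CPM in the control library, 246 CPM at 24 h and 143 CPM at 3 d, and the 10 oligodendrocyte markers, all found and led by Mal, to 571 CPM in the control library, 863 CPM at 24 h and 704 CPM at 3 d. Mal alone had 391 CPM in the control library, 805 CPM at 24 h and 532 CPM at 3 d. The other oligodendrocyte markers together were lowest at 24 h. Of the glucocorticoid-responsive genes in endothelial cells 8 were counted at 24 h, with 6 higher and a median log2 ratio of 1.56, and 9 at 3 d, with 5 higher and 0.72. Apart from the astrocyte markers and the erythrocyte share of the UMI total, the part of these lists was not tested.

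Pericytes had few UMIs, so that 3 genes were counted at 24 h, with 0 higher and 0 lower, beside 6.04% and 3.13% of 3511 genes, and 8 at 3 d, with 5 higher and 0 lower, beside 9.94% and 3.48% of 4515 genes. The higher genes at 3 d were Abca1 (14, 12 and 91 UMIs in the control, 24 h and 3 d libraries, log2 ratio 1.66, 95% interval 0.84 to 2.59), Acaca (19, 24 and 90 UMIs, 1.20, 95% interval 0.48 to 2.00), Scd2 (83, 97 and 289 UMIs, 0.76, 95% interval 0.40 to 1.13), Fdps (0.71) and Srebf2 (0.63). Sterol synthesis genes summed to 452 CPM in the control library, 343 CPM at 24 h and 558 CPM at 3 d, with log2 ratio -0.40, 95% interval -0.62 to -0.18 at 24 h and 0.31, 95% interval 0.12 to 0.49 at 3 d. Fatty acid synthesis genes summed to 195 CPM in the control library, 181 CPM at 24 h and 327 CPM at 3 d. Their 3 d log2 ratio was 0.75, 95% interval 0.48 to 1.03, and lay past 1.5-fold under each of 13 alternatives, down to 0.585. Markers of other cells moved in both directions in the pericyte class. The 10 astrocyte markers together had 807 CPM in the control library, 170.5 CPM at 24 h and 1904 CPM at 3 d there, led by Slc1a2 and with Aqp4 and Gjb6 at 0 UMIs at 24 h, and the microglial markers had 461 CPM in the control library, 314 CPM at 24 h and 1361 CPM at 3 d. The 5 erythrocyte markers, all found and led by Hbb-bs, went from 163 CPM in the control library to 52.2 CPM at 24 h and 7960.2 CPM at 3 d. The 10 oligodendrocyte markers, with Mog, Mobp and Ermn at 0 UMIs at 24 h, had 217 CPM in the control library, 54.2 CPM at 24 h and 174 CPM at 3 d. Lower at both times were the 9 neuroblast markers, led by Meis2 and with Stmn2 at 0 UMIs at 24 h, with 253 CPM in the control library, 17.7 CPM at 24 h and 85.2 CPM at 3 d, while the 9 mature neuron markers, led by Nrgn and with 4 of them at 0 UMIs in every library, had 58.03 CPM in the control library, 30.5 CPM at 24 h and 25.5 CPM at 3 d. Of the glucocorticoid-responsive genes 5 were counted at each time, with 4 higher at 24 h and 5 at 3 d. Apart from the erythrocyte share of the UMI total, which left Abca1 at 3 d at log2 ratio 1.67 when taken out, the part of these lists other than the astrocyte markers was not tested. In pericytes with at most 1 UMI of astrocyte markers, 118, 159 and 190 cells chosen after the data were seen, sterol synthesis genes had 395, 338 and 459 CPM, log2 ratios of -0.22 and 0.22. In those cells Abca1 at 3 d was at log2 ratio 1.23, Acaca at 0.99 and Fdps at 0.93, each on under 100 UMIs, whereas Scd2 at 0.51 and Srebf2 at 0.51 lay within 1.5-fold. Srebf2 was at log2 ratio 0.53 with cells weighted equally. Abca1 was at log2 ratio 0.58 when a cell was left out only for crossing both quality limits, at 0.84 without doublets, at 0.98 with cells weighted equally and at 2.38 without its 5 highest cells. Hmgcs1 at 3 d was at log2 ratio -0.33 and Srebf2 at 24 h at 0.13. The median over the counted members was 0.13 at 24 h and 0.67 at 3 d, over all genes 0.00 and 0.04.

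Of the other pathway genes in pericytes 14 were counted at 24 h, with 1 higher and 3 lower, beside 6.04% and 3.13% over all genes, and 22 at 3 d, with 5 higher and 0 lower, beside 9.94% and 3.48%. Cyp7b1, which breaks down oxysterols, had 145 CPM in the control library, 275 CPM at 24 h and 283 CPM at 3 d and was higher at both times (log2 ratio 0.92, 95% interval 0.59 to 1.26 and 0.96, 95% interval 0.65 to 1.29). Acsl3 had 112 CPM in the control library, 52.2 CPM at 24 h and 170.5 CPM at 3 d, lower at 24 h (log2 ratio -1.10) and higher at 3 d (0.61). Without doublets it was at log2 ratio -0.26 and 0.17, and without its 5 highest cells at -0.19 at 24 h. Hacd2 (log2 ratio -1.02) and Npc2 (-0.66), which binds cholesterol in lysosomes, were lower at 24 h, Npc2 at -0.58 without doublets. Fads2 of polyunsaturated fatty acid synthesis was higher at 3 d (log2 ratio 0.77), as were Lpcat3 (0.65) and the LXR gene Nr1h2 (0.59). Fads2 lay within 1.5-fold under 3 alternatives, down to log2 ratio 0.29 in cells with at most 1 UMI of astrocyte markers. Lpcat3 did so under 3, down to log2 ratio 0.46 when a cell was left out only for crossing both quality limits, and under median-ratio scaling Nr1h2 was at 0.56.

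Positions of some of the genes described are given on GRCm38. Hmgcs1 (ENSMUSG00000093930) is at chr13:119690379-119708260, plus strand, and Idi1 (ENSMUSG00000058258), on the same chromosome, at chr13:8885501-8892451, plus strand. Pmvk (ENSMUSG00000027952) is at chr3:89454541-89469013, plus strand, and Fdps (ENSMUSG00000059743) lies close to it at chr3:89093588-89101959, minus strand. Srebf1 (ENSMUSG00000020538) is at chr11:60199089-60222581, minus strand, and Acaca (ENSMUSG00000020532) at chr11:84129672-84401651, plus strand. Ch25h (ENSMUSG00000050370) is at chr19:34473778-34475164, minus strand.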

How the data were processed

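Single cells of 3 libraries were measured, and the deposited values are raw UMI counts per gene and cell. Per the file headers the authors used Cell Ranger 7.1.0, whereas their processing notes name 3.1.0 and mm10. Cells with at least 500 genes and at most 7% mitochondrial UMIs were clustered together with Seurat 5.3.0 in R 4.3.3, with genes in at least 3 cells, 2000 variable features, UMI number and mitochondrial share regressed out, 20 principal components and resolution 0.5. A cluster took the class with the largest share of its markers, at least 3, found in at least 10% of the cluster's cells and at least 2-fold above the other clusters. It stayed unnamed when its 10 leading genes held more markers of another class, or none of its own at low depth. Doublets were called per library with Scrublet in scanpy 1.11.5 and kept, except in an alternative. UMIs were summed per class and library with numpy 2.4.6 and pandas 2.3.3. Ratios have exact conditional binomial (Clopper-Pearson) and levels exact Poisson 95% intervals from scipy 1.17.1, which cover counting error only. A library at 0 UMIs was set to 3 UMIs as a bound. The interval code was tested on simulated data. Figures were drawn with matplotlib 3.10.9.

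The members, marker lists and gene lists were chosen with earlier results of these data known. Named were, per class and time, members past 1.5-fold, at most 6 in each direction, then Hmgcs1, Sqle, Insig1, Srebf1, Srebf2, Scd2, Fasn, Abca1, Abcg1, Stard4 and Ch25h, and at most 3 other pathway genes in each direction. Outside this rule, Mvd, Fdft1, Acly, Msmo1, Acat2, Nsdhl, Lss, Insig2, Scd1, Acaca and Acss2 in astrocytes, and Acsl3 and Nr1h2 in pericytes were chosen after their values were seen. For each class, marker lists of other classes are given when they passed 1.5-fold at 24 h or 3 d with at least 100 CPM in 1 of the libraries, and a few smaller ones beside them. This limit, and the classes for which the immediate early list is given, were also chosen after the values were seen. Alternatives changed the cell filter, doublets, clustering, scaling, cells, UMI minimum, fold and step members. Genes were placed with an annotation of GRCm38. Some values of single marker genes are not reported.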

Additional observations from a re-analysis of the deposited data

Results flagged for a closer look

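Log2 ratios past 1.5-fold in opposite directions singled out 3 genes of the other pathway genes, and the differences were not tested. Abca2 at 24 h was at 0.82 in astrocytes and -0.69 in microglia, where it lay within 1.5-fold under 3 alternatives. Hacd2 at 24 h was at 0.59 in astrocytes and 0.68 in microglia but -1.02 in pericytes. Acsl3 in pericytes was at -1.10 at 24 h and 0.61 at 3 d, and without doublets at -0.26 and 0.17.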

How the results depend on the processing

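With 1 library per group no test was possible, and every value rests on 1 pool of mice. No member and no summed step past 1.5-fold turned its direction under any alternative that gave a value, but 4 other pathway genes did. Lpl in microglia was -0.84 at 24 h in the largest cluster (82 UMIs over both sums) and -1.24 at 3 d in microglia with 1 UMI or 0 from other classes' markers (21 UMIs). In those microglia Acsl3 at 24 h was 0.36 (9 UMIs). Mylip in oligodendrocytes at 3 d was -0.52 without doublets (22 UMIs), and Ggps1 at 24 h -0.092 in oligodendrocytes with at most 1 UMI from astrocyte markers (46 UMIs). All of these lie below the 100 UMIs asked for in the main analysis. The lower sterol synthesis sum in 24 h astrocytes kept its direction under each alternative. The values below moved past the counting interval of the main value or, for counts of members past the fold in either direction, by over 1.5 times, and the cause was not tested unless the alternative's own construction gives it. Under the alternatives only members were counted. The share over all genes was not, so a changed count is not a result about the members. Keeping only cells with 1 UMI or 0 from other classes' markers left too few cells in every class but microglia and was not run there. Scaling by the median ratio moved all log2 ratios by at most 0.06.

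The sterol synthesis sum in astrocytes at 24 h, a log2 ratio of -0.59, was -0.49 in the largest cluster alone, -0.68 with cells weighted equally, -0.66 without the 5 cells with most UMIs and -0.71 without the most abundant member. At 3 d it was -0.018 under median-ratio scaling and -0.0098 without the most abundant member, against 0.02. The fatty acid sum in astrocytes at 24 h, 0.06, was -0.11 in the largest cluster, -0.013 with cells weighted equally and -0.11 without the most abundant member. At 3 d, from 0.18, it was 0.22 in the largest cluster, 0.14 under median-ratio scaling and 0.23 without the most abundant member. The members past the fold in astrocytes at 24 h went from 10 to 3 at 2-fold.

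The sterol sum in oligodendrocytes at 24 h, -0.18, was -0.29 with cells weighted equally, -0.43 without the 5 cells with most UMIs and -0.65 in cells with at most 1 UMI from astrocyte markers, an alternative chosen after seeing the data. In those same cells the fatty acid sum was -0.048 at 24 h and 0.028 at 3 d, against 0.03 and -0.10. Over all oligodendrocytes, without the most abundant member, Scd2, that sum was 0.56 at 24 h and 0.037 at 3 d. Members past the fold in oligodendrocytes at 24 h, 1, became 3 with only cells crossing both limits left out, 2 with no regression, 4 without doublets, 2 in cells with at most 1 UMI from astrocyte markers, 2 with erythrocyte markers left out of the total (also chosen after seeing the data), 2 under median-ratio scaling, 2 at 30 UMIs, 5 with cells weighted equally and 9 without the 5 cells with most UMIs. At 3 d, from 1, they became 2 without doublets, 0 at 2-fold, 2 with cells weighted equally and 2 without the 5 cells.

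In microglia with 1 UMI or 0 from other classes' markers the sterol sum was 0.37 at 24 h, against 0.07, and the fatty acid sum -0.29 at 3 d, against 0.05, with 0 members past the fold at either time for want of UMIs. Members past the fold in microglia at 24 h, 1, became 0 with only cells crossing both limits left out, 0 with list members left out of the variable features, 0 without doublets, 0 in the largest cluster, 0 under median-ratio scaling, 0 at 2-fold, 5 at 30 UMIs and 2 with cells weighted equally. At 3 d, from 1, they became 0 in the largest cluster, 0 with unnamed clusters with microglial markers added (chosen after seeing the data), 0 under median-ratio scaling, 0 at 2-fold and 4 at 30 UMIs.

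The fatty acid sum in endothelial cells without the most abundant member was -0.078 at 24 h, against -0.58, and 0.23 at 3 d, against -0.04. Members past the fold in endothelial cells at 24 h, 1, became 5 at 30 UMIs. At 3 d, from 2, they became 1 with only cells crossing both limits left out, 1 at resolution 1, 6 at 30 UMIs and 0 at 2-fold. Members past the fold in pericytes at 24 h, 0, became 4 at 30 UMIs, and at 3 d, from 5, they became 3 without doublets, 0 in cells with at most 1 UMI from astrocyte markers, where Abca1, Acaca and Fdps stayed past 1.5-fold on under 100 UMIs, 12 at 30 UMIs and 2 at 2-fold. The Agt-led cluster added to astrocytes, also chosen after seeing the data, moved none of these values so far.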
